A study of Mus musculus with 4 samples.

Results

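The common gamma chain receptors, the receptors for IL-4 and IL-13, and the kinases JAK1 and JAK3 carry the cytokine signals that help to set T helper cell fate. The 10 genes described here were taken by symbol from a fixed list: Il4ra, Il2rg, Il2ra, Il2rb, Il7r, Il9r, Il21r, Il13ra1, Jak1 and Jak3. Each symbol matched 1 row, so 10 of the 54532 genes in the deposited table are described, and 5 of them passed the filter on low values and were tested. The 4 libraries are labelled as mouse CD4+ T cells that had infiltrated tumours of B16, a pigmented melanoma line. WT 1 and WT 2 carry the genotype label WT, and Piezo1KO 1 and Piezo1KO 2 the label Piezo1KO, numbered by their titles. The treatment label is the tumour microenvironment in each of them. The promoter or allele behind the Piezo1 deletion, the age of the mice and any pooling were not given by the sources used here. No label states that libraries came from different mice, so the spread behind each p-value is that between these libraries and may be technical.

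The gamma chain, encoded by Il2rg, is a shared subunit of the receptors for IL-2, IL-4, IL-7, IL-9, IL-15 and IL-21. JAK3 binds the gamma chain and JAK1 binds its partner chains, and the pair phosphorylates STAT factors when a cytokine joins the chains. IL-4 uses a type I receptor of IL-4Rα with the gamma chain, mainly on haematopoietic cells, or a type II receptor of IL-4Rα with IL-13Rα1, which also binds IL-13 and is found on many other cells. In culture, the IL-9 producing subset called Th9 arises from naive cells given IL-4 together with TGF-β, and Piezo1 is a channel opened by mechanical force whose part in that process the series asks about.

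The libraries held little T cell RNA. The 16 T cell markers had a summed FPKM (the deposited unit, fragments relative to gene length and to library size) of 2.40 to 2.63 in WT and 12.4 to 18.7 in Piezo1KO. The 7 melanocyte markers had 5699.6 to 5749.6 and 6359 to 6391. Cd4, which marks the labelled cells, was read 1 time in WT 1, 3 times in WT 2, 35 times in Piezo1KO 1 and 9 times in Piezo1KO 2. Assigned depth was 13789266 to 15892797 reads, of which mitochondrial genes took 2.99% to 3.86% in WT and 20.1% and 48.3% in Piezo1KO 1 and Piezo1KO 2. Piezo1 itself stood at FPKM 27.8 (WT 1), 27.6 (WT 2), 18.7 (Piezo1KO 1) and 7.64 (Piezo1KO 2). Its log2 fold change of -1.14 missed the threshold in limma (adjusted p = 0.166). In bulk libraries, fewer cells of a type and less RNA per cell cannot be told apart.

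JAK1 had the highest level of the 10 genes in every library, and most gamma chain receptor transcripts stood near the floor in WT. Ordered by WT mean FPKM, the genes were Jak1 at 12.6 ± 0.778, Jak3 at 3.27 ± 0.851, Il13ra1 at 2.42 ± 0.177, Il4ra at 1.01 ± 0.381, Il7r at 0.374 ± 0.0674, Il2rg at 0.189 ± 0.0633, Il21r at 0.128 ± 0.00778 and Il2rb at 0.0758 ± 0.00992 (SD, n = 2 each). Il9r and Il2ra closed the order, with 2 and 0 WT reads. Jak3 and Il13ra1 differed in WT by about the SD of Jak3, as did Il2rg and Il21r by the SD of Il2rg. In Piezo1KO the order of means was Jak1 at 12.7 ± 2.58, Il13ra1 at 4.39 ± 0.114, Il4ra at 4.03 ± 2.24, Jak3 at 2.87 ± 1.91, Il2rg at 1.75 ± 0.897, Il7r at 1.72 ± 0.815, Il2rb at 1.08 ± 0.245 and Il21r at 0.601 ± 0.679 (SD, n = 2 each). Neighbours from Il13ra1 to Il21r in this order differed by less than the larger SD of each pair.

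**Figure D1:**
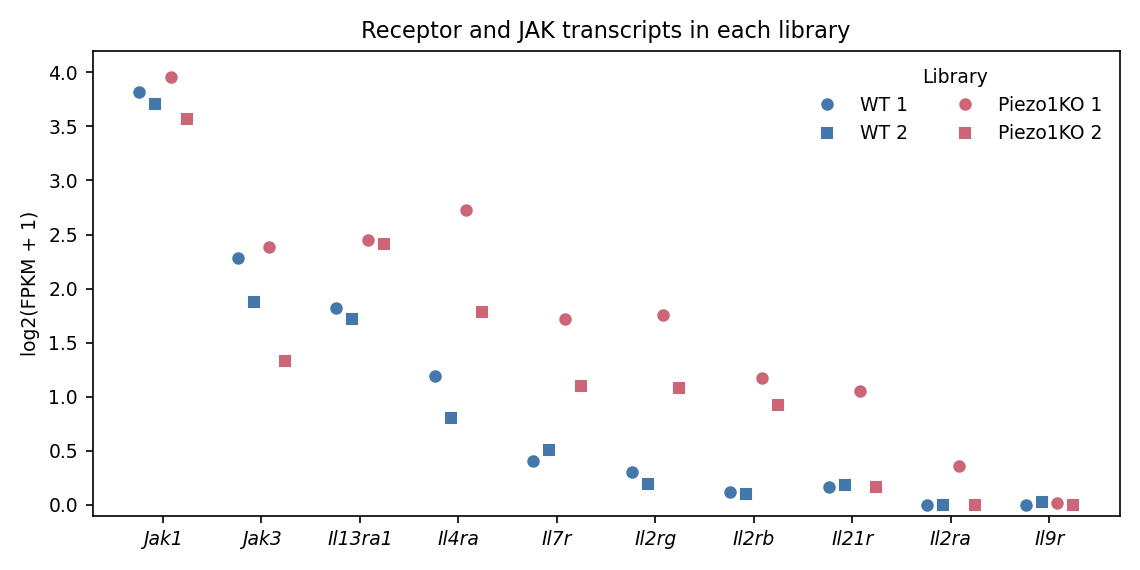
Expression of the 10 genes in the 4 libraries, as log2(FPKM + 1), with 1 point per library (circles for library 1 and squares for library 2 of each group). Il4ra, Il7r, Il13ra1, Il2rg and Il2rb have both Piezo1KO points above both WT points, Jak1 and Jak3 overlap, and Il9r lies at the floor.

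The stretch before the RefSeq start differed between the genes with the higher and the lower levels. Windows of 250 bases before that start were found for 9 of the 10 genes on GRCm38.p6, with none for Il2rb. The RefSeq start need not be the deposited gene start. The Il7r window lies wholly inside the deposited gene, and those of Il4ra, Jak1 and Jak3 run partly into their genes. CpG dinucleotides numbered 21 for Il13ra1, 19 for Jak1, 17 for Il4ra and 8 for Jak3, against 5 for Il9r, 4 for Il21r, 3 for Il2rg, 3 for Il2ra and 1 for Il7r. Over 32851 such windows the median was 6 and the quartiles were 2 and 16. The 4 genes with the highest WT means were thus the 4 with the most CpG, which is a description of 9 genes with no test. Windows of 3 CpG-rich genes and of Il2rg, the shared chain, are shown 5′ to 3′ on the gene's strand to let this be seen, with capitals marking CpG.
Jak1 (chr4:101265224-101265473, minus strand): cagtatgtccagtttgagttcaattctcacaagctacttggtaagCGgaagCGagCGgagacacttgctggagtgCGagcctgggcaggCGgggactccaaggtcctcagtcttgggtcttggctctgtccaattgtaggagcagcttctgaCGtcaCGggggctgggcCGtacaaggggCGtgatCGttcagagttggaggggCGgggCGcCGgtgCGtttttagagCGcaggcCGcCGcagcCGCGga
Il13ra1 (chrX:36111858-36112107, plus strand): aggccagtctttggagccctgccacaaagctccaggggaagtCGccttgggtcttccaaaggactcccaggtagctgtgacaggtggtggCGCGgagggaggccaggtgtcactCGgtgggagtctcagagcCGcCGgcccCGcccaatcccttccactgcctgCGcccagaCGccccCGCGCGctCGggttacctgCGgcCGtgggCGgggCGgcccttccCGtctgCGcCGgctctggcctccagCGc
Il4ra (chr7:125552021-125552270, plus strand): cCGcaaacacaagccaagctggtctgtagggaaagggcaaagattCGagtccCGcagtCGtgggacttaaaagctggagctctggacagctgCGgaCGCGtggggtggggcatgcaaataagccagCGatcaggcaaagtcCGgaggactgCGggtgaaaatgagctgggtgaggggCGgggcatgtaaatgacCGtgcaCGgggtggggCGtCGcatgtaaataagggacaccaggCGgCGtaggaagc
Il2rg (chrX:101268256-101268505, minus strand): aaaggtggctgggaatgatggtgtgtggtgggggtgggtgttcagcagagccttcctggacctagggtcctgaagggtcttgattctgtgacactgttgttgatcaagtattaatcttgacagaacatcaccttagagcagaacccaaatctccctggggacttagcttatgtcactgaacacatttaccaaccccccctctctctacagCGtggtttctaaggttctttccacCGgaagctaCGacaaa

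Each of the patterns searched for, chosen as letters that STAT and other factors bind, was in 0 or 1 of these windows. Sites of other factors, and variants of these patterns, were not sought. Such counts are too small to set these genes apart from all windows. TTCNNNGAA, the palindromic pattern that STAT5 and other STATs recognise, was in 1 of 9 windows, that of Il7r, as TTCAGGGAA from position -142. It was in 7.02% of the 32851 windows on either strand. The position counts from the RefSeq start, which for Il7r lies inside the deposited gene. The same letters with 1 more base between TTC and GAA, the spacing that STAT6 prefers, was in 0 of 9 (5.85% of windows), GAGGAAGT, an ETS pattern of the kind PU.1 binds, in 0 (2.44%), and TATAAA in 0 (12.4%). With a single match, no patterns overlapped.

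Il4ra (ENSMUSG00000030748, GRCm38 chromosome 7, 125552120 to 125579474, plus strand) encodes IL-4Rα, the chain common to both IL-4 receptors. It stood at FPKM 1.28 in WT 1 (152 reads), 0.745 in WT 2 (91 reads), 5.61 in Piezo1KO 1 (497 reads) and 2.45 in Piezo1KO 2 (110 reads). Both Piezo1KO libraries were above both WT libraries, and Piezo1KO 1 stood well above Piezo1KO 2. Exact 95% Poisson intervals, which cover counting error only, ran from 1.09 to 1.51 in WT 1 and from 2.01 to 2.95 in Piezo1KO 2, the nearest pair across groups. The log2 fold change, Piezo1KO minus WT on the log2(FPKM + 1) scale, was 1.26 with a standard error of 0.37, and missed the threshold (limma unadjusted p = 0.0214, adjusted p = 0.141). By the GENCODE M21 annotation, 571 of the 6002 exon bases of Il4ra are also exon of Gm44876, on the opposite strand and listed at 0 reads. The counting of reads in such bases was not given by the sources used here, so the level of Il4ra is uncertain to that extent.

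Il13ra1 (ENSMUSG00000017057, chromosome X, 36112110 to 36171259, plus strand) encodes the chain that completes the type II receptor. It stood at FPKM 2.54 in WT 1 (186 reads), 2.29 in WT 2 (173 reads), 4.48 in Piezo1KO 1 (245 reads) and 4.31 in Piezo1KO 2 (120 reads). The libraries of each group lay close together, and the groups did not overlap. Its log2 fold change was 0.66 with a standard error of 0.14, and it missed the threshold as well (limma unadjusted p = 0.00590, adjusted p = 0.118). Scaled to all assigned reads, mitochondrial ones included, the log2 fold change was 0.051, while the median of all tested genes moved from -0.0059 to -0.67. Relative to that median it was 0.72, against 0.67 with the deposited values.

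Il2rg (ENSMUSG00000031304, chromosome X, 101264378 to 101268255, minus strand), the gamma chain itself, fell just short of the filter with a mean FPKM of 0.970 over the 4 libraries. It stood at FPKM 0.234 in WT 1 (11 reads), 0.144 in WT 2 (7 reads), 2.39 in Piezo1KO 1 (84 reads) and 1.12 in Piezo1KO 2 (20 reads). The groups did not overlap, and the ratio of group means was 9.27. Without the filter its log2 difference was 1.17 (limma adjusted p = 0.233). In the GENCODE M21 annotation, 728 of its 2387 exon bases, or 30.5%, are also exon of Gm20489, a transcript that spans it on the same strand and is listed at 0 reads. How reads in shared bases were counted was not given by the sources used here, though none were counted for Gm20489. The level of Il2rg is thus uncertain and may be too low.

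The IL-2 receptor chains stood apart from each other. Il2rb (chromosome 15, 78479256 to 78495271, minus strand) encodes the signalling chain for IL-2 and IL-15, which NK cells and activated or memory T cells carry. It stood at FPKM 0.0828 in WT 1 (7 reads), 0.0688 in WT 2 (6 reads), 1.25 in Piezo1KO 1 (79 reads) and 0.903 in Piezo1KO 2 (29 reads). The groups did not overlap, and the ratio of means was 14.2, which rests on 13 WT reads. Il2ra (chromosome 2, 11642807 to 11693193, plus strand) encodes CD25, the chain that raises affinity for IL-2 and marks activated and regulatory T cells. It had 24 reads in Piezo1KO 1, an FPKM of 0.285, and 0 reads in the other 3 libraries. A count of 0 allows up to 3 reads, or FPKM 0.0266 in WT 1, 0.0258 in WT 2 and 0.0701 in Piezo1KO 2. Il2ra reads were thus seen in 1 library. The exact 95% intervals of Piezo1KO 1 (0.183 to 0.424) and Piezo1KO 2 (0 to 0.0862) did not overlap, so these libraries of 1 group differed beyond counting error.

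Il7r (ENSMUSG00000003882, chromosome 15, 9505788 to 9530176, minus strand) encodes IL-7Rα, a survival receptor of naive and memory T cells that the TSLP receptor shares. It passed the filter just inside the threshold, at a mean FPKM of 1.05, through the Piezo1KO libraries alone. It stood at FPKM 0.326 in WT 1 (30 reads), 0.422 in WT 2 (40 reads), 2.30 in Piezo1KO 1 (158 reads) and 1.14 in Piezo1KO 2 (40 reads). The groups did not overlap, and the log2 fold change of 0.95 (standard error 0.28) did not pass (limma unadjusted p = 0.0210, adjusted p = 0.141).

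Il21r and Il9r were low. Il21r (chromosome 7, 125603429 to 125633570, plus strand), the receptor for the follicular helper cytokine IL-21, lies 23954 bases beyond the end of Il4ra on the same strand. It stood at FPKM 0.122 in WT 1 (8 reads), 0.133 in WT 2 (9 reads), 1.08 in Piezo1KO 1 (53 reads) and 0.120 in Piezo1KO 2 (3 reads). Piezo1KO 1 alone was high, and Piezo1KO 2 was at the WT level, a split that its neighbour Il4ra did not show. Il9r (chromosome 11, 32187541 to 32200279, minus strand), the receptor for the Th9 cytokine, was read 2 times in WT 2 and 1 time in Piezo1KO 1, with 0 reads in WT 1 and in Piezo1KO 2. No level can be told from background at these counts.

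The 2 kinases overlapped between the groups, and the wide spread within Piezo1KO leaves the size of any change uncertain. Jak1 (ENSMUSG00000028530, chromosome 4, 101152367 to 101265282, minus strand) stood at FPKM 13.2 in WT 1 (1874 reads), 12.1 in WT 2 (1772 reads), 14.5 in Piezo1KO 1 (1548 reads) and 10.9 in Piezo1KO 2 (589 reads). The Piezo1KO libraries lay on either side of the WT libraries, and the log2 fold change was -0.0013 with a standard error of 0.18 (limma adjusted p = 0.996). Jak3 (ENSMUSG00000031805, chromosome 8, 71676296 to 71690575, plus strand) stood at FPKM 3.88 in WT 1 (409 reads), 2.67 in WT 2 (291 reads), 4.22 in Piezo1KO 1 (333 reads) and 1.52 in Piezo1KO 2 (61 reads). Its groups overlapped, and the log2 fold change was -0.22 with a standard error of 0.40 (limma adjusted p = 0.707). Of its 5352 exon bases, 404 are shared with Insl3 on the same strand, which had at most 4 reads in any library. Scaled to all assigned reads the log2 fold changes were -0.74 for Jak1 and -0.75 for Jak3, and -0.074 and -0.080 relative to the median of all genes.

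Of the 5 tested genes, 0 passed the limma test at an adjusted p under 0.05, against 1.1% of the 11085 genes tested (0.731% higher and 0.37% lower). At an unadjusted p under 0.05, 3 of the 5 were higher in Piezo1KO (Il4ra, Il7r and Il13ra1), where 14.9% of all genes were, and 0 lower, where 13.7% were. The groups did not overlap, with Piezo1KO higher, for these same 3, against 33.9% of genes tested. Below the filter, both Piezo1KO libraries were above both WT libraries for 2 of the 5 genes (Il2rg and Il2rb), against 11% of the 12569 genes with a read below it. Over the 10 listed genes this made 5 higher, against 21.7% of the 23654 genes with a read, and 0 lower, against 27.9%. The median log2 fold change of the 5 tested genes was 0.66, with 3 above 0, against a median of -0.0059 and 5494 of 11085 above 0 over all genes. Il7r, among the 5, passed the filter through Piezo1KO alone, and the median of the other 4 was 0.33. Limma-voom on the reads recovered from FPKM called 0 of the 5 as well, with 13.6% of all genes called. Other settings with the 4 libraries kept also called 0 of those they tested: a pseudocount of 0.1 (0.992% of all genes called), no filter (0.00423%), scaling to all assigned reads (15.4%) or to reads outside mitochondrial genes (1.24%), quantile normalisation (1.73%), no trend (1.15%) and a replicate block (2.38%). At a mean FPKM of at least 5, Jak1 was the 1 gene tested (1.03%).

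The calls depended on which library was left out. With 1 Piezo1KO library left, it is assumed to vary as the WT libraries do, which alone then supply the residual spread, and likewise in reverse. Without Piezo1KO 1, 4 of the 5 passed, Il4ra, Il7r and Il13ra1 higher and Jak3 lower (limma adjusted p of 0.0395, 0.0233, 0.0206 and 0.0470), and 52.9% of all genes passed. Without Piezo1KO 2, Il4ra, Il7r and Il13ra1 passed, higher (adjusted p of 0.0212, 0.0174 and 0.0469), and 14.2% of all genes did. Without WT 1 or without WT 2, 0 of the 5 and 0 of all genes passed. The log2 fold change of Il4ra was 0.79 without Piezo1KO 1 and 1.73 without Piezo1KO 2, and that of Jak3 was -0.75 and 0.30.

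**Figure D2:**
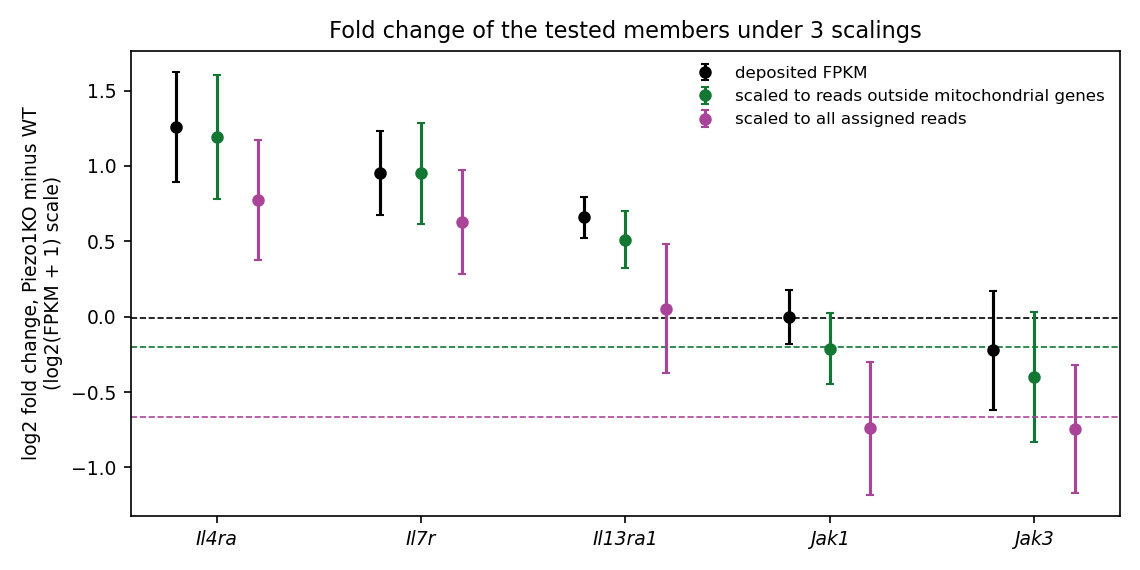
Log2 fold changes (Piezo1KO minus WT, on the log2(FPKM + 1) scale) of the 5 tested genes, with bars of 1 standard error, for deposited FPKM and for 2 other scalings, and dashed lines at the median of all genes tested in the same colours. Il4ra, Il7r and Il13ra1 lie above the median line of each scaling, and Jak1 and Jak3 lie within 1 standard error of it.

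Ratios between genes of 1 library do not depend on how libraries were scaled, though the transcripts compared need not come from the same cells. Il13ra1 over Il2rg, the type II against the type I partner of IL-4Rα, was 10.9 in WT 1, 15.9 in WT 2, 1.88 in Piezo1KO 1 and 3.86 in Piezo1KO 2. By these values IL-13Rα1 transcripts outnumbered gamma chain transcripts per length in the 4 libraries, by less in Piezo1KO. The level of Il2rg may be too low, because of its shared exon bases, so the size of this ratio is uncertain. Exact 95% binomial intervals were 5.94 to 22.2 in WT 1 and 2.39 to 6.54 in Piezo1KO 2, which overlap, and 7.55 to 40.1 in WT 2 and 1.46 to 2.43 in Piezo1KO 1. Il4ra over Jak1 was 0.0977 and 0.0618 in WT and 0.387 and 0.225 in Piezo1KO, so IL-4Rα transcripts were scarcer than those of its kinase throughout, and less so in Piezo1KO. Il4ra over Il13ra1 was 0.505 and 0.325 in WT and 1.25 and 0.567 in Piezo1KO, and the intervals of WT 1 (0.405 to 0.630) and Piezo1KO 2 (0.434 to 0.741) overlapped. Jak3 over Jak1 was 0.295 and 0.222 in WT and 0.290 and 0.140 in Piezo1KO, and here the groups overlapped. The ratios are given as values and were not tested.

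**Figure D3:**
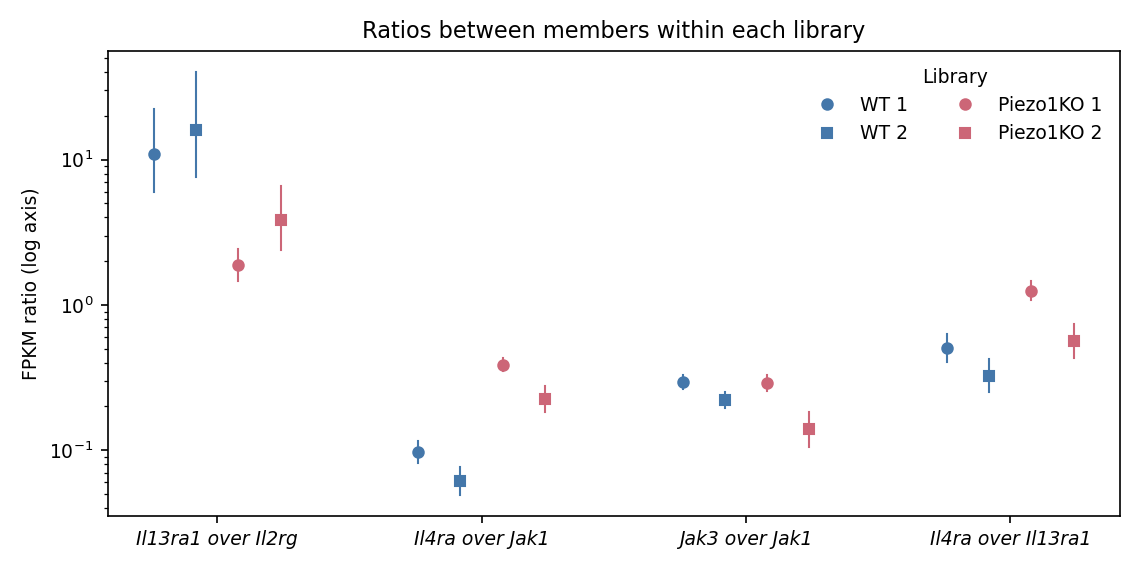
FPKM ratios between genes within each library on a log axis, with exact 95% binomial intervals that cover counting error only. Il13ra1 over Il2rg is lower in the Piezo1KO libraries (1.88 and 3.86) than in WT (10.9 and 15.9), Il4ra over Jak1 is higher, and Jak3 over Jak1 overlaps.

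Markers of several blood cell types had higher sums in the Piezo1KO libraries, where 5 of the receptors also had their higher values, and their part in the values above was not tested. Summed FPKM of the 6 pan-leukocyte genes was 10.99 to 13.0 in WT and 68.4 to 130.4 in Piezo1KO, and 2 of 5 tested passed, higher. The 12 macrophage and monocyte genes had 84.9 to 111 and 426 to 627, with 6 of 12 higher, and the 5 neutrophil genes had 0.573 to 1.02 and 46.2 to 136, with 2 of 3 tested higher and Ly6g at 0 reads in the 4 libraries. All 3 tested neutrophil genes passed the filter through Piezo1KO alone, as did both tested NK cell genes, both tested dendritic cell and B cell genes and 3 of the 4 tested T cell genes, so these counts support no direction. The 6 NK cell genes had 0.166 to 0.280 and 3.99 to 6.81, with 1 of 2 tested higher, and the 6 dendritic cell genes 1.35 to 1.91 and 3.91 to 8.24, with 0 of 2. Of the 16 T cell genes 0 of 4 tested passed, and in WT 1 and WT 2, 6 and 4 of the 16 had 0 reads. The 6 B cell genes had 2.04 to 2.11 and 2.20 to 7.48 (0 of 2 tested passed), and the 4 mast cell and basophil genes 0.133 to 0.137 and 0.120 to 1.54 (0 tested). The 7 melanocyte, 6 fibroblast and 6 endothelial genes had 0 of 7, 0 of 4 and 0 of 3 tested that passed, with sums of 4.80 to 6.56 and 6.26 to 13.2 for fibroblasts and 3.42 to 8.16 and 5.23 to 8.98 for endothelium. The 5 erythroid genes, which had 244 to 389 and 5124 to 8472, were higher in 5 of 5.

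Set against the pan-leukocyte sum, a measure chosen after its values were seen, the genes fell into unlike patterns. Il2rg, which is not in that sum, had an FPKM equal to 1.80% of it in WT 1, 1.31% in WT 2, 1.83% in Piezo1KO 1 and 1.63% in Piezo1KO 2. Its groups thus overlapped on this scale. That overlap depended on Srgn, 1 of the 6 summed genes. Without it Il2rg was at 2.02% in WT 1, 1.47% in WT 2, 2.79% in Piezo1KO 1 and 2.16% in Piezo1KO 2, where the groups did not overlap, while it overlapped without any other 1 of the 6. Il2rb was 0.636% and 0.626% in WT and 0.958% and 1.32% in Piezo1KO, and stayed higher in both. Il4ra was lower on this scale, at 9.87% and 6.78% in WT and 4.31% and 3.57% in Piezo1KO, and Il7r likewise at 2.51% and 3.84% against 1.76% and 1.67%. Il21r, on 3 to 53 reads, was at 0.938% and 1.21% in WT against 0.829% and 0.176% in Piezo1KO. Without Srgn its groups overlapped, at 1.05% and 1.36% in WT and 1.26% and 0.232% in Piezo1KO. Il13ra1 went from 19.5% and 20.8% to 3.43% and 6.30%, and Jak3 from 29.8% and 24.3% to 3.24% and 2.22%. Jak1, whose FPKM was alike between groups, went from 101% and 109.7% to 11.1% and 15.9%, since the sum it is divided by was larger in Piezo1KO. Any gene that rose less than the sum is lower on this scale, whichever cells its transcripts came from. The lower values of Il4ra, Il7r, Il21r, Il13ra1 and Jak3 are to be read in that way too.

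**Figure D4:**
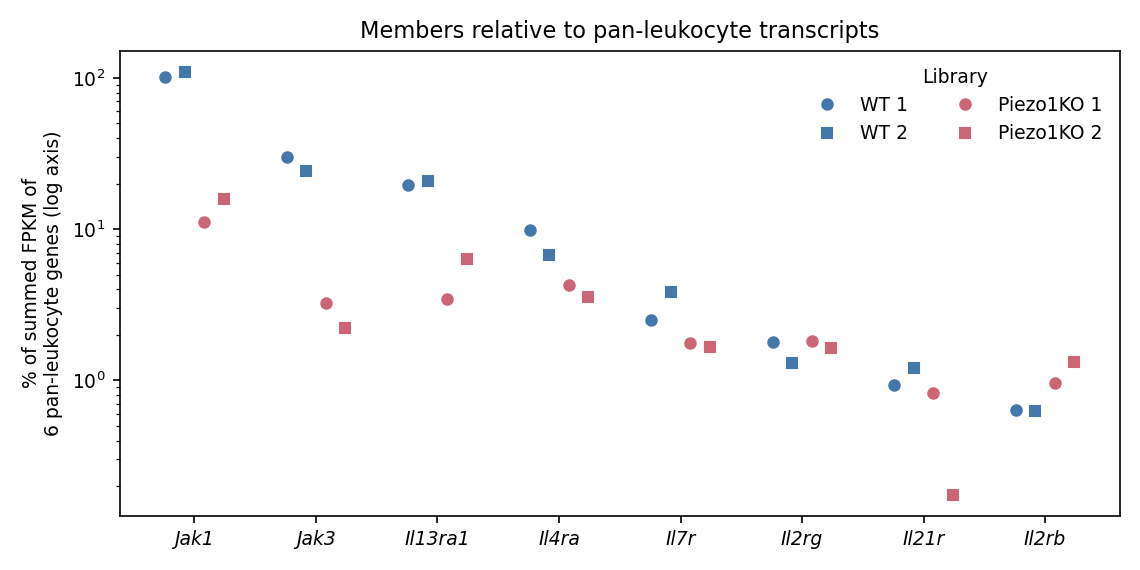
FPKM of 8 of the genes as a percentage of the summed FPKM of 6 pan-leukocyte genes in the same library, on a log axis. Il2rg is at 1.31% to 1.83% in the 4 libraries, Il2rb is higher in Piezo1KO, and Jak1, Jak3, Il13ra1, Il4ra, Il7r and Il21r are lower. Il21r overlaps between groups when Srgn is left out of the sum.

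The genes nearest in pattern were sought for Il4ra, Il2rg and Jak1, as the smallest root mean square distance between centred log2(FPKM + 1) profiles over the 4 libraries. Nearest to Il4ra among 6236 candidates were Dusp1, a stress-induced phosphatase of MAP kinases (distance 0.0395), Lcp1, the leukocyte actin bundler L-plastin (0.112), and Cd68, a macrophage lysosomal protein (0.115). Dusp1 stood at FPKM 32.1 in WT 1, 25.2 in WT 2, 102 in Piezo1KO 1 and 51.4 in Piezo1KO 2. Nearest to Il2rg were CT010467.1, a ribosomal RNA related sequence (0.0228), B2m, the light chain of MHC class I (0.0678), and Smox, spermine oxidase (0.0976). The added 1 in log2(FPKM + 1) shrinks changes of low genes, so nearness need not mean a like fold change. The ratio of group means was 9.27 for Il2rg. B2m stood at FPKM 103 in WT 1, 88.7 in WT 2, 280 in Piezo1KO 1 and 189 in Piezo1KO 2. Nearest to Jak1 were Tes (0.0125), Clptm1 (0.0143) and Smco4 (0.0158), but 2211 genes lay within 0.2 of Jak1, so many genes shared its flat pattern. For Il4ra and Il2rg, 12 and 17 genes lay that near.

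Among other receptors of the family, Crlf2, the TSLP receptor chain that pairs with IL-7Rα, stood at FPKM 4.27 in WT 1, 3.25 in WT 2, 10.2 in Piezo1KO 1 and 7.59 in Piezo1KO 2. The groups did not overlap, with Piezo1KO higher, as for 33.9% of all genes tested, and the log2 fold change was 1.05 (limma adjusted p = 0.111). Il15ra had at most 10 reads in any library, and Il13ra2, the IL-13 decoy receptor, had 0 reads in the 4 libraries. Of these 3 genes 1 was tested and 0 passed. In the 21 other class I cytokine receptors 7 were tested and 0 passed, with a median log2 fold change of 0.49 and 5 of 7 above 0. Their smallest p-values belonged to Csf3r, the G-CSF receptor of neutrophils (1.87), Cntfr (-0.69), Csf2rb, whose level is uncertain beside its near copy Csf2rb2 (1.32), and Il6st, the gp130 chain (-0.57), with limma adjusted p of 0.136, 0.152, 0.160 and 0.164. Csf3r and Csf2rb passed the filter through Piezo1KO alone, so the list median rests partly on genes let in by the group where they were high. Whether the gamma chain receptors differed from this family was not tested.

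Ligand transcripts were few. Il4 stood at FPKM 1.49 in WT 1 (36 reads), 2.04 in WT 2 (51 reads), 2.65 in Piezo1KO 1 (48 reads) and 1.96 in Piezo1KO 2 (18 reads). Its groups overlapped, and its log2 fold change was 0.26 (limma adjusted p = 0.409). Il15 had 19, 11, 22 and 11 reads in the same order, Il2 had 0, 2, 3 and 4, Il13 had 0, 6, 0 and 0, and Tslp had 0, 1, 1 and 0. Il7, Il9 and Il21 had 0 reads in the 4 libraries. Of the 8 ligands 1 was tested and 0 passed.

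Signalling genes downstream of the receptors did not pass either. Of the kinases, Jak2 and Tyk2 had log2 fold changes of -0.29 and -0.29 (limma adjusted p of 0.241 and 0.313). For both the groups did not overlap, with Piezo1KO lower, as for 35.6% of all genes tested. Stat6, the factor that IL-4Rα activates, stood at FPKM 25.2 in WT 1, 21.8 in WT 2, 25.5 in Piezo1KO 1 and 18.8 in Piezo1KO 2, and its log2 fold change was -0.093 (limma adjusted p = 0.759). Stat5b and Stat3 had log2 fold changes of -0.21 and 0.12 (limma adjusted p of 0.533 and 0.694). Among the inhibitors 0 of 5 tested passed, and the median was 0.31. Socs3, a feedback inhibitor of gp130 signalling, Sh2b3, an adaptor that restrains JAK2, Socs5 and the phosphatase Ptpn2 had log2 fold changes of 1.03, -0.62, -0.46 and 0.31 (limma adjusted p of 0.132, 0.156, 0.260 and 0.327). Cish, Socs1 and Socs2, the STAT5-induced inhibitors, were below the filter and are named after their values were seen.

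Adaptors and PI3 kinase genes had mostly lower values in Piezo1KO, and 0 of 8 tested passed (median -0.33, 6 of 8 below 0). Sos1, the RAS exchange factor, Pik3r1, the regulatory subunit of PI3 kinase, Shc1 and Pik3ca had log2 fold changes of -0.74, -0.63, -0.35 and -0.29 (limma adjusted p of 0.132, 0.151, 0.205 and 0.205).

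Genes that STAT5 and STAT6 are known to induce had higher medians than all genes, with 0 called. Of 8 STAT5 targets tested 0 passed, with a median of 0.48 and 5 of 8 above 0. Osm, the cytokine oncostatin M, missed the threshold narrowly, at FPKM 1.07 in WT 1, 0.454 in WT 2, 19.5 in Piezo1KO 1 and 9.92 in Piezo1KO 2 (log2 fold change 3.11, limma adjusted p = 0.0501), and it was the 1 gene of its list that passed the filter through Piezo1KO alone. The survival gene Bcl2l1, the kinase Pim1 and the kinase Pim2 had log2 fold changes of 0.60, 1.66 and 0.47 (limma adjusted p of 0.118, 0.125 and 0.133). Of 15 STAT6 targets 6 were tested and 0 passed, with a median of 1.33 and 6 of 6 above 0, and 3 of the 6 passed the filter through Piezo1KO alone. Chil3, Ccl22, Arg1 and Mrc1, which macrophages or dendritic cells make under IL-4, had log2 fold changes of 1.99, 1.59, 2.43 and 1.06 (limma adjusted p of 0.0501, 0.0787, 0.0863 and 0.132). Gata3, the Th2 factor and named after its values were seen, had at most 11 reads in any library. The macrophage markers given above were higher in the same libraries.

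At an unadjusted limma p under 0.05, 5 of 8 STAT5 targets and 5 of 6 STAT6 targets tested were higher in Piezo1KO and 0 were lower. Of 7 other class I receptors 3 were higher and 2 lower, of 5 inhibitors 1 and 1. Of 8 adaptors and PI3 kinase genes, 0 were higher and 2 lower. Among those counted as higher, 3 STAT6 targets, 1 STAT5 target and 2 class I receptors passed the filter through Piezo1KO alone. Those genes support no direction. Crlf2 was higher, with 0 called so among the ligands and other JAK kinases. Over all genes tested, 14.9% were higher and 13.7% lower by this rule.

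**Figure D5:**
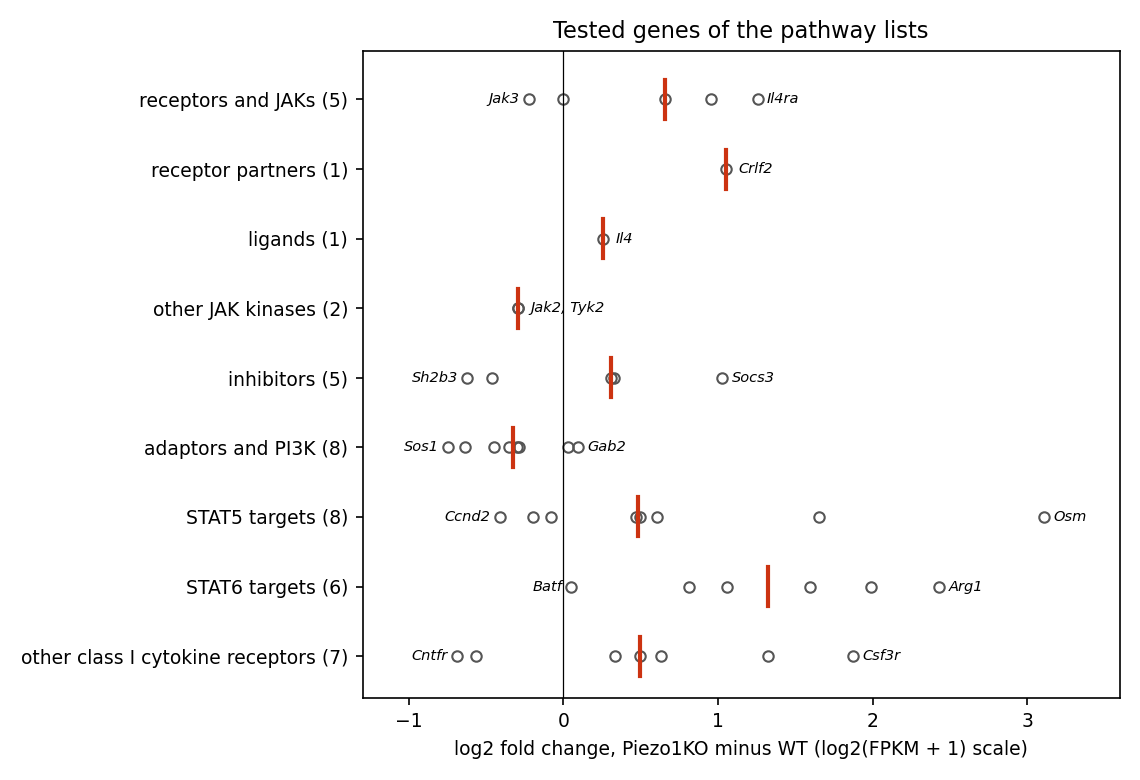
Log2 fold changes (Piezo1KO minus WT, on the log2(FPKM + 1) scale) of the tested genes of 9 lists, as open circles, with a red bar at the list median, the number tested in brackets and the outermost genes named. STAT6 targets have the median farthest to the right (1.33) and adaptors and PI3K genes that farthest to the left (-0.33). Of the STAT6 targets, 3 of 6 passed the filter through Piezo1KO alone, so that median rests partly on the filter.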

How the data were processed

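RNA was sequenced in 4 libraries, 2 per group. Reads were cleaned with fastp 0.19.7 and featureCounts 1.5.0-p3 did the counting, per the submitters' processing notes, which name build GRCm38. The deposited values are FPKM, made by the authors with a library size that no source used here gives. Multiplied by gene length, 100% of nonzero FPKM values were whole multiples of a step within 0.05 reads, so reads per gene could be recovered, and the implied library size was 0.544 to 1.28 times the assigned total. Melanocyte, blood cell and stromal marker lists were summed as FPKM.

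The log2(FPKM + 1) values, Piezo1KO minus WT, were fitted by limma 3.58.1 (R 4.3.3, with an intensity trend and no block) where the 4 libraries averaged FPKM 1 or more. P-values were two-sided, adjusted by Benjamini-Hochberg over all 11085 genes, with a threshold of 0.05. The test was checked on simulated data, with changed genes drawn from those at a WT mean FPKM of 5 or more. Among the genes described, Jak1 alone reached that level, so the check does not cover changes in the others. Fold changes on this scale understate low genes.

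The 10 genes and the lists were chosen with earlier results of these data known. Of each list, up to 4 tested genes with the smallest p were named, with ligands and the 10 genes named whatever their value. A result of the STAT list is not reported here. For Il4ra, Il2rg and Jak1, 3 nearest genes in pattern were named, from tested genes averaging FPKM 5 or more with a symbol that is not Gm plus digits, Rik or an AC, AL or BC clone name. Promoter windows came from RefSeq (GRCm38.p6), and exon overlaps from GENCODE M21, whose coordinates for the 10 genes equal those deposited. Alternatives were no filter, a filter at mean FPKM 5, a pseudocount of 0.1, 2 other scalings, quantile normalisation, no trend, voom, a replicate block and leaving out each library. Leaving single genes out of the pan-leukocyte sum, and Il7r out of the median, was chosen after seeing the data.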

Additional observations from a re-analysis of the deposited data

How the results depend on the processing

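No tested gene of the 10 passed under 9 alternatives with the 4 libraries kept, and leaving out 1 library gave 0 to 4 called. The count over all genes, 122, was 1 without a filter, 68 at a mean FPKM of at least 5, 192 after quantile normalisation and 1512 in voom. Scaled to all assigned reads it was 1707 (277 higher, 1430 lower), and scaled to reads outside mitochondrial genes 137 (77 higher, 60 lower, median of all genes -0.20), against 81 higher and 41 lower. Leaving out 1 library gave 0 to 5859, with 0 without either WT library. Leaving out 1 library gave Jak1 -0.19 to 0.19 and Jak3 -0.75 to 0.30, with signs opposite to the full data for Jak1 without WT 1 (0.057) and for both without Piezo1KO 2. The cause was not tested. With the title numbers as a replicate block, 264 genes and 0 of the 5 passed, and Il4ra had a limma adjusted p of 0.0716. The differences between numbered libraries correlated at -0.033 across genes between the groups, which cannot show whether the libraries were paired. The descriptions number the WT libraries otherwise than the titles do, so the block may not match how libraries were made. Il2ra, Il9r, Il21r, Il2rb and Il2rg rest on few WT reads, which limits their precision.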
